A study of Mus musculus with 40 samples.

Results

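Lepr encodes the leptin receptor, the cell-surface receptor through which the fat hormone leptin signals. Bisulfite amplicon sequencing covered 19 CpGs around the annotated start of Lepr on chromosome 4 (ENSMUSG00000057722.10), and these 19 were taken by chromosome and position from the 300 CpGs measured in the series. They are named here Lepr_1 to Lepr_19 in the direction of transcription. The first 9 CpGs lie upstream of the annotated start, from 0 to 39 bp after the first CpG, and the other 10 lie in the 5′ untranslated region (5′ UTR), from 65 to 148 bp after it. The annotated start falls in the 26 bp gap between Lepr_9 and Lepr_10. Every CpG of the mouse reference in this window was measured, 19 of 19.

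The animals were 9-week-old male C57BL/6J mice (the substrain as the study's methods give it), and DNA was taken from whole liver. Their dams received a low fat (LF) or a high fat (HF) diet before pregnancy, through gestation and until weaning, and the pups were then fed LF or HF themselves. Group names give the dam's diet and then the pup's: LL (LF dam, LF after weaning, n = 10), HL (HF dam, LF after weaning, n = 9, with replicate 1 of the 10 labelled animals not analysed here for lack of values), LH (LF dam, HF after weaning, n = 10) and HH (HF dam, HF after weaning, n = 10). All animals were of one inbred strain, the labels name no transgene or deletion, and the fat of both diets came mainly from coconut oil. According to the study's methods, males housed together were split over both diets at weaning, so animals of different groups can share a dam, and the labels do not give the litter. The p-values treat each animal as a separate sample.

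Leptin is made by fat cells and reports the size of the fat store to the brain, where the long form of the receptor acts through the kinase Jak2 and the transcription factor Stat3. The liver expresses mainly short forms and a soluble form of the receptor. Methylation of CpGs close to a gene start is a mark that is usually low where the promoter lies in a CpG-dense stretch and is often higher at the edges of that stretch. The files used here hold methylation only, and expression of Lepr or of hepatocyte markers was not analysed here. In whole liver, a different share of a cell type and a different methylation level within a cell type cannot be told apart.

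Methylation was the percent of bisulfite reads that kept a cytosine at a CpG, and a difference between percents is given in points. Reads per Lepr CpG and animal ranged from 840 to 20764, with a median of 4954. At Lepr_6 to Lepr_17, 12 CpGs, every methylated and every total count was an even number in all 39 animals (468 values of each), and the depth was 2.00 times that of the 7 other Lepr CpGs, with a range over animals of 1.998 to 2.003. Counts were even throughout at 145 of the 300 CpGs of the series. The cause was not tested. A count that is doubled in both numerator and denominator leaves the percent unchanged but overstates the depth, so intervals of single values rest on counts that were halved at these 12 CpGs (median depth 3761 reads). These intervals cover counting error only, since PCR copies of a molecule were not marked.

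Methylation at the Lepr start fell from the upstream side into the transcribed side in a step, with peaks at particular CpGs rather than a smooth line. Over the 39 animals, Lepr_1 had the highest mean (26.2% ± 4.88, SD), and Lepr_2 and Lepr_3 stood at 9.31% ± 2.30 and 6.80% ± 1.85. Levels then rose to 11.3% ± 2.20 at Lepr_4 and 11.1% ± 2.71 at Lepr_5, fell to 8.66% ± 2.04 at Lepr_6, and reached a second peak of 18.2% ± 3.79 at Lepr_7. Lepr_8 and Lepr_9, only 3 and 5 bp beyond that peak, had 7.86% ± 1.46 and 7.61% ± 1.79. The lowest animal at Lepr_7 (10.8%) exceeded the highest animal at Lepr_8 (10.6%).

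Past the gap that holds the gene start, all 10 CpGs of the 5′ UTR had means between 1.36% and 2.81%. Lepr_10, the first of them, stood at 2.51% ± 0.886, Lepr_16 was the lowest of the 19 CpGs at 1.36% ± 0.538, and Lepr_19, the last, stood at 1.75% ± 0.872. The step was present in each animal: in 39 of 39, all 9 upstream CpGs exceeded the highest of the 10 UTR CpGs. Lepr_1 was the highest CpG in 36 of 39 animals and Lepr_7 the second highest in 35.

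The mean over the upstream CpGs was 11.9% ± 1.95 and the mean over the UTR CpGs 2.05% ± 0.380, a ratio within animals of 5.88 ± 0.879 that ran from 4.31 to 8.44. Of the 19 loci of the series that could be tested, Lepr had the largest ratio between its highest and lowest CpG means, 19.3. In points its range over CpGs, 24.8, was second to that of Lep, the leptin gene (30.4). The mean over the whole Lepr locus, 6.71% ± 1.07, ranked 9 of 19.

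**Figure D1:**
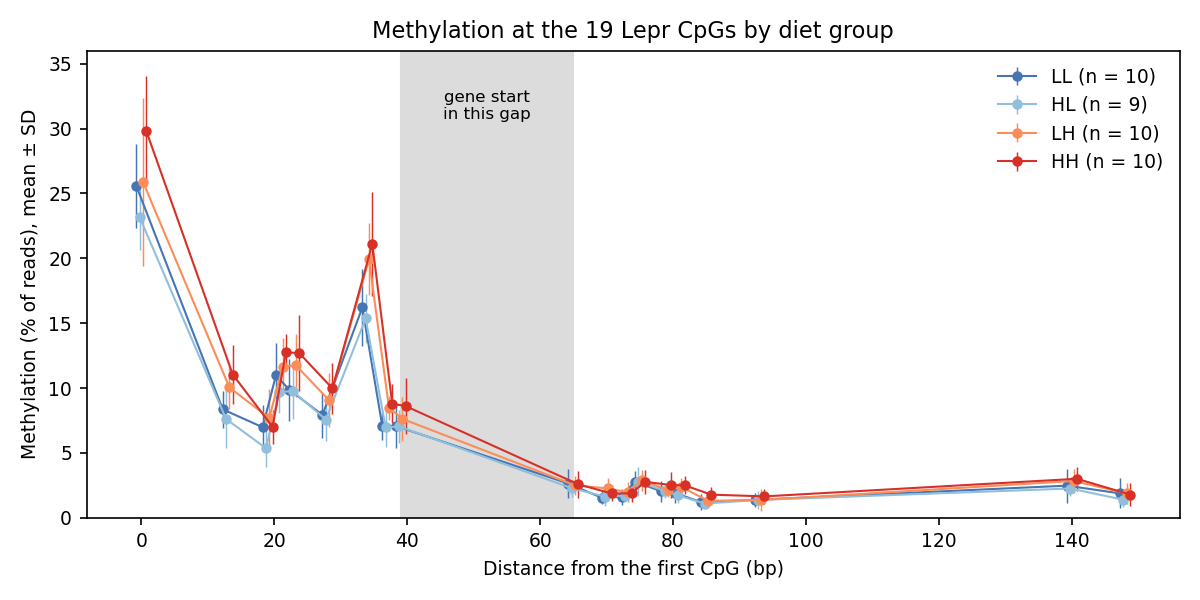
Mean methylation (% of reads, ± SD over animals) at the 19 Lepr CpGs against the distance from the first CpG in bp, with 1 line for each diet group (LL, LH and HH n = 10, HL n = 9) and the gap that holds the gene start shaded. All groups show peaks at Lepr_1 and Lepr_7 and a drop to under 4% past the gap, and HH (red) lies above HL (light blue) at each of the 9 upstream CpGs.

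Differences between animals were wider than counting error at every Lepr CpG. The variance between animals of a group was 5.20 to 29.8 times the binomial variance that the halved counts would give, with the largest excess at Lepr_1, where the SD within groups was 4.43 points. The lowest Lepr_1 value was 16.1% in LH replicate 5 (95% Wilson interval 14.7 to 17.7, 2245 reads) and the highest 34.3% in HH replicate 6 (32.4 to 36.3, 2302 reads). At Lepr_7, HL replicate 3 had 10.8% (9.52 to 12.3) and HH replicate 6 had 27.0% (25.2 to 28.9). The spread was not the same in each group: at Lepr_1 the SD was 6.48 in LH and 2.50 in HL.

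With group means removed, the upstream CpGs moved together from animal to animal. Pearson's r was above 0 in 36 of 36 pairs of upstream CpGs, with a median of 0.398 and a highest value of 0.678 between Lepr_6 and Lepr_7, over 39 animals. Among the 45 pairs of UTR CpGs the median was 0.119, and 29 were above 0. In the 90 pairs with 1 CpG of each kind it was 0.143. The upstream and UTR means of an animal had an r of 0.570. CpGs of an animal come from the same amplicon and reads, so these values describe the locus and are not independent of each other. The locus mean had an r of -0.135 with the depth at Lepr and -0.159 with the median over the 10 other loci with a mean under 2%.

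**Figure D2:**
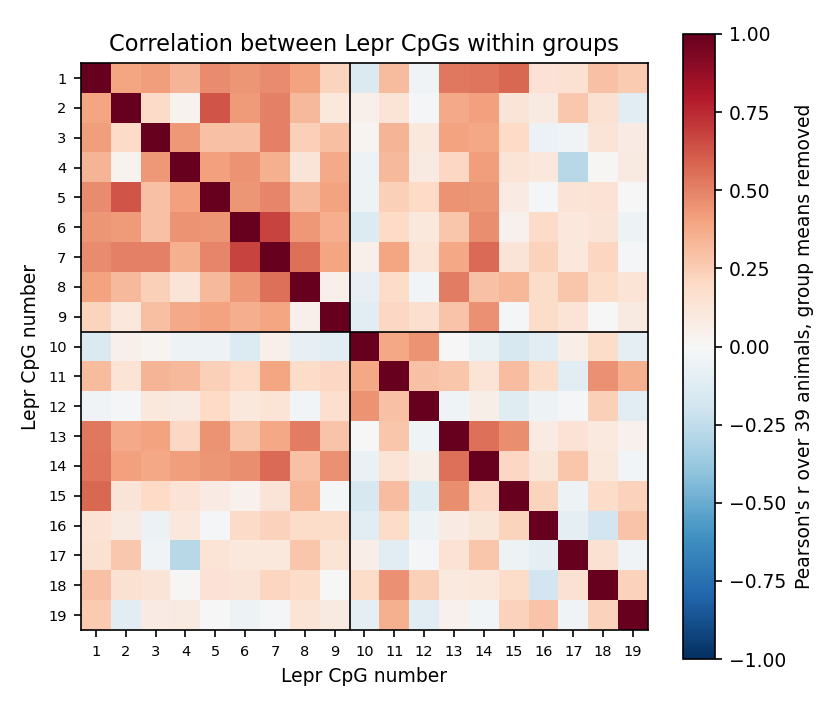
Pearson's r between each pair of the 19 Lepr CpGs over 39 animals after the group means were removed, from -1 (blue) to 1 (red), with black lines between the upstream CpGs (1 to 9) and the 5′ UTR CpGs (10 to 19). The upper left block, pairs of upstream CpGs, is red throughout (median 0.398), and the lower right block of UTR pairs is paler (median 0.119).

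The locus mean was ordered HL, LL, LH, HH, with both groups fed HF after weaning above both groups fed LF. In LL the locus mean ran from 5.64% through a median of 6.10% to 7.21%, with a mean of 6.30% ± 0.589. In HL it ran from 4.56% through 5.89% to 6.66%, with a mean of 5.84% ± 0.746. Of the 9 HL animals, 4 lay below the lowest LL animal and the others within the range of LL.

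In LH the locus mean ran from 5.20% through 7.14% to 8.33%, with a mean of 7.04% ± 1.03. In HH it ran from 5.85% through 7.61% to 9.01%, with a mean of 7.59% ± 0.993. Both HF-fed groups spread more widely than the LF-fed groups and overlapped each other. No pair of neighbours in this order passed the adjusted threshold (adjusted p from 0.405 to 0.690, over the 19 loci of each comparison).

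**Figure D3:**
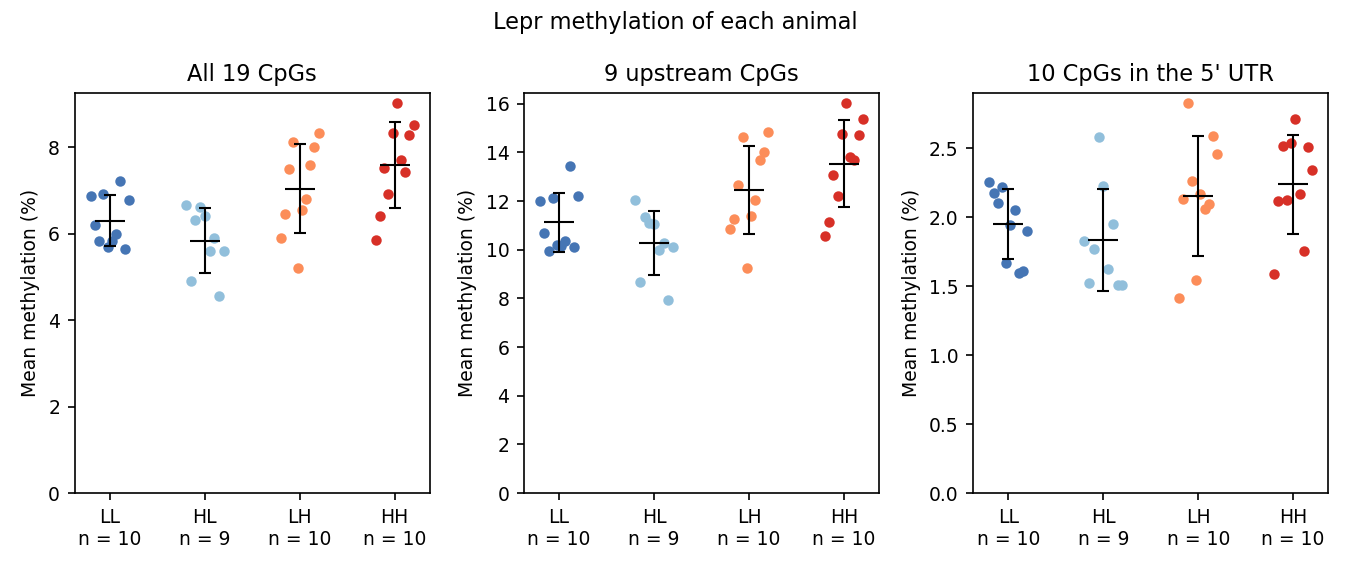
Mean methylation (%) of each animal over all 19 Lepr CpGs, over the 9 upstream CpGs and over the 10 CpGs of the 5′ UTR, with 1 point an animal and the group mean ± SD in black for LL, HL, LH and HH. The HF-fed groups sit higher in all panels, from a locus mean of 5.84% in HL to 7.59% in HH, and the groups overlap.

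Whether the diet after weaning went with a different Lepr level was asked over all animals, in a linear model with maternal diet. The 20 HF-fed animals had a locus mean of 7.31% ± 1.03, from 5.20% through a median of 7.50% to 9.01%, and the 19 LF-fed animals 6.08% ± 0.689, from 4.56% through 5.99% to 7.21%. Of the HF-fed animals, 17 of 20 lay above the LF median and 12 lay above the highest LF-fed animal. The estimated difference was 1.23 points (F test, p = 0.000116, adjusted p = 0.00219 over 19 loci, permutation p = 0.000260). Lepr was the only one of the 19 loci past the adjusted threshold in this term, 5.26% of the loci.

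The HF-fed animals were higher at all 19 Lepr CpGs, and at 174 of all 253 tested CpGs. An unadjusted p under 0.05 was reached at 11 of the 19, against 10.7% of the 253 tested CpGs, and all 11 were higher with HF (6.72% of the 253 were called in that direction). After adjustment over the 253 CpGs, 3 were called (1.19%), and all 3 were upstream Lepr CpGs: Lepr_7, Lepr_2 and Lepr_8. The median difference over the 19 CpGs was 0.604 points, against 0.108 points over all tested CpGs.

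Lepr_7, the second peak of the profile, had the largest difference. It ran from 13.0% through a median of 20.6% to 27.0% in the HF-fed animals and from 10.8% through 15.9% to 19.9% in the LF-fed animals. The means were 20.5% ± 3.40 (n = 20) and 15.8% ± 2.49 (n = 19), and 19 of 20 HF-fed animals lay above the LF median. The difference was 4.70 points (p = 2.46e-05, adjusted p = 0.00624, permutation p = 2e-05, the smallest that 100000 permutations allow).

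At Lepr_2 the HF-fed animals ran from 7.99% through 10.3% to 16.3% and the LF-fed animals from 4.50% through 7.81% to 11.8%. All 20 HF-fed animals lay above the LF median, and 11 of the 19 LF-fed animals lay below the lowest HF-fed animal. The difference was 2.54 points (adjusted p = 0.0230). At Lepr_8 the HF-fed animals ran from 6.58% through 8.48% to 10.6% and the LF-fed animals from 4.83% through 6.86% to 9.35%, a difference of 1.62 points (adjusted p = 0.0230). These 3 calls were lost, leaving 0, when all 6 pairwise comparisons and 3 model terms were adjusted together. They were also lost when runs of neighbouring animal numbers, a stand-in for cages that the labels do not name, were added to the model. The locus difference held in both (F test, adjusted p = 0.0198 and 0.00723). In the model with runs, only runs that hold both post-weaning diets inform this difference. These were 3 runs with HF fed dams (12 animals) and 2 with LF fed dams (10 animals).

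The difference lay mainly upstream in points, and was closer between both sides of the start as a ratio. The mean over the upstream CpGs was 13.0% ± 1.84 with HF and 10.7% ± 1.30 with LF, a ratio of 1.21, and the mean over the UTR CpGs was 2.20% ± 0.389 and 1.90% ± 0.309, a ratio of 1.16. The upstream mean differed by 2.27 points (adjusted p = 0.00190 in place of the locus mean). The UTR mean differed by 0.300 points, which did not pass adjustment (p = 0.0127, adjusted p = 0.241). At single CpGs the ratio of HF to LF means ran from 1.14 to 1.32 upstream and from 1.01 to 1.35 in the UTR. The UTR levels are near the low end of the series: the median over the 10 other loci with a mean under 2% averaged 0.772% over animals. How far a shared background enters the UTR ratios was not tested.

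Among animals born from HF fed dams, the post-weaning comparison is HH against HL. The locus mean was 7.59% ± 0.993 in HH and 5.84% ± 0.746 in HL, a difference of 1.75 points ± 0.407 (SE), and 9 of the 10 HH animals exceeded the median of HL. Lepr was the only locus of 19 called (exact permutation test, p = 0.000693, adjusted p = 0.0132; 5.26% of loci). All 9 upstream CpGs and 9 of the 10 UTR CpGs were higher in HH, as were 174 of all 253 tested CpGs.

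Of the 19 CpGs, 10 had an unadjusted p under 0.05 in HH against HL, 8 of them upstream, against 12.6% of the 253 tested CpGs. None passed adjustment (0% of the 253, exact permutation test). The smallest p was at Lepr_4, which ran from 10.3% through 12.8% to 14.7% in HH and from 7.60% through 9.47% to 12.4% in HL. Every HH animal, 10 of 10, exceeded the median of HL at this CpG, and the groups overlapped. The difference was 3.08 points ± 0.687 (SE; exact permutation p = 0.000758, adjusted p = 0.113).

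At Lepr_1, HH ran from 22.9% through 31.3% to 34.3% and HL from 19.3% through 23.3% to 26.3%. The difference was 6.65 points ± 1.62 (SE; exact permutation p = 0.00134, adjusted p = 0.113). It was the largest difference in points of the 19 CpGs in this comparison. At Lepr_16, the lowest CpG, HH ran from 1.05% through 1.80% to 2.86% and HL from 0.801% through 1.07% to 1.46%, a ratio of means of 1.63 (exact permutation p = 0.00188, adjusted p = 0.119). Leaving out HH replicate 1 gave 2 called CpGs in place of 0.

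The locus call in HH against HL was lost when all 4 comparisons of the study were adjusted together (exact permutation test, adjusted p = 0.0527) and on the log2 odds scale (adjusted p = 0.0724). It was also lost within runs of neighbouring animal numbers, of which only 3 held both groups (12 animals): the difference there was 0.920 points (exact permutation p = 0.125), with -0.815, 0.734 and 2.45 points in the separate runs.

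Among animals born from LF fed dams, LH exceeded LL by 0.742 points ± 0.376 (SE, n = 10 and 10), and 8 of 10 LH animals lay above the LL median. The difference did not pass the test (adjusted p = 0.405; 95% interval -0.0475 to 1.53). No locus did (0%), with 1 of 19 loci at an unadjusted p under 0.05. Of the 19 CpGs, 17 were higher in LH, against 125 of all 253, and 4 had an unadjusted p under 0.05, against 7.91% of the 253, and none passed adjustment.

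Lepr_8 had the smallest p in LH against LL, with 7.58% to 10.6% in LH and 5.50% to 8.32% in LL. All 10 LH animals lay above the LL median at this CpG, and the difference was 1.42 points ± 0.446 (SE; p = 0.00503, adjusted p = 0.525). At Lepr_7 all 10 LH animals, from 16.9% to 23.8%, lay above the LL median of 15.5%, and the difference was 3.71 points ± 1.29 (SE; adjusted p = 0.525). At Lepr_1, by contrast, LH had 25.9% ± 6.48 and LL 25.6% ± 3.27. Within the 2 runs of animal numbers that held both groups (10 animals), LH exceeded LL by 1.65 and 1.76 points at the locus mean (exact permutation p = 0.02, the smallest that these runs allow).

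**Figure D4:**
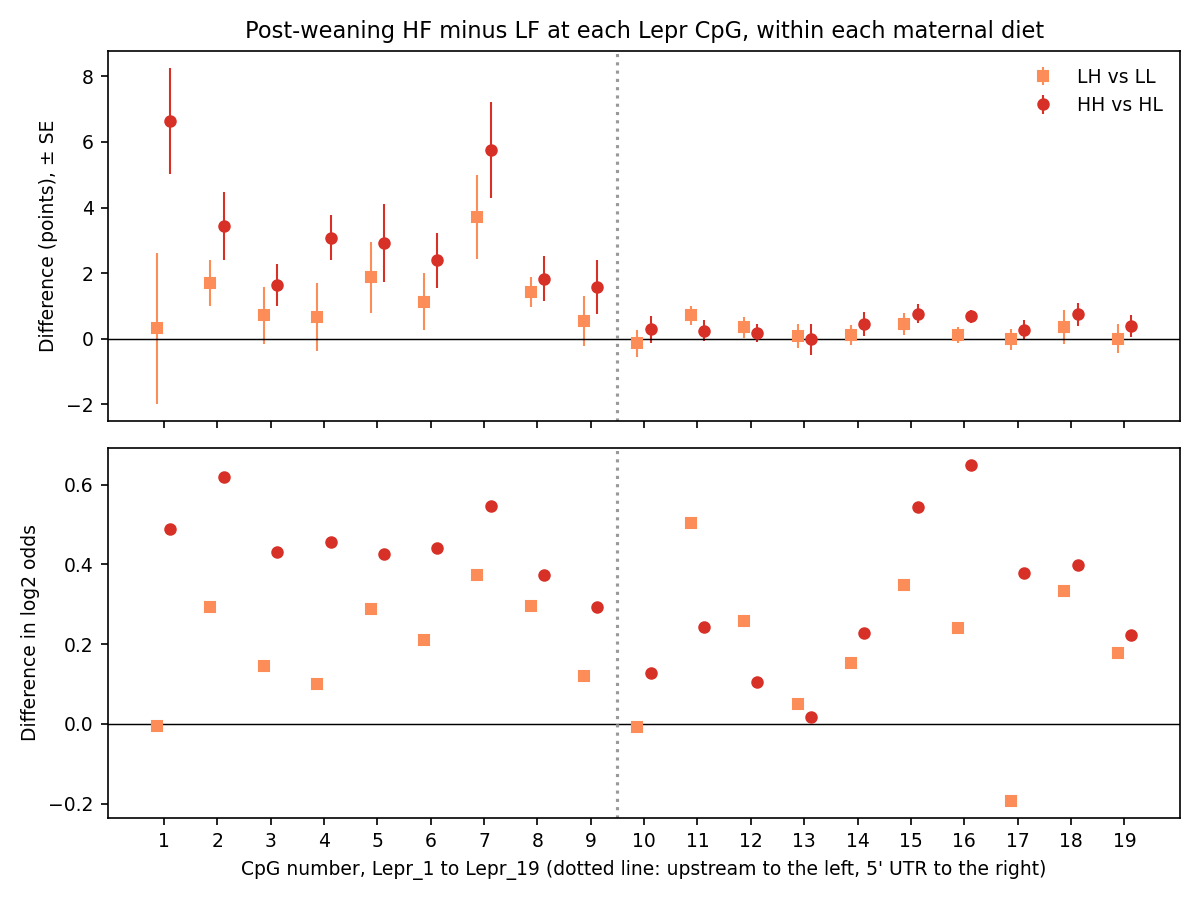
Difference between post-weaning HF and LF at each Lepr CpG, in points ± SE (upper panel) and in log2 odds (lower panel), for LH vs LL (squares, LF dams) and HH vs HL (circles, HF dams), with a dotted line between upstream and 5′ UTR CpGs. In points the largest differences are at Lepr_1 (6.65, HH vs HL) and Lepr_7 (5.75 and 3.71), while on the log2 odds scale UTR CpGs such as Lepr_16 (0.65, HH vs HL) lie as high as upstream ones.

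The difference between HF and LF feeding was larger in points among animals born from HF fed dams, but the interaction of both diets did not pass the test at the locus mean (1.01 points, p = 0.0762, adjusted p = 0.634; 0% of loci called). The direction turned with runs of animal numbers in the model (-0.787 points): within runs LH exceeded LL by 1.71 points and HH exceeded HL by 0.920 points. It had an unadjusted p under 0.05 at 1 Lepr CpG, against 6.72% of the 253. This was Lepr_1, where the HF minus LF difference was 6.33 points larger with HF fed dams (p = 0.0321, adjusted p = 0.660).

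Maternal diet itself went with little difference in the Lepr locus mean. The 19 animals born from HF fed dams had a locus mean of 6.76% ± 1.24 and the 20 born from LF fed dams 6.67% ± 0.902, and the model term was 0.0615 points (p = 0.831, adjusted p = 0.873; 0% of loci called). At the CpGs, 11 were higher and 8 lower with HF fed dams (127 and 126 over all 253), and 1 had an unadjusted p under 0.05, against 11.9% of the 253 (Lepr_3, -1.14 points, adjusted p = 0.407).

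Within each post-weaning diet the sign of the maternal difference was not the same. Among LF-fed animals HL minus LL was -0.457 points at the locus mean (SE 0.306; exact permutation p = 0.155, adjusted p = 0.490), and 16 of 19 CpGs were lower, against 144 of all 253. It was -0.298 points without HL replicate 9 and -0.284 points in the quasi-binomial model of the reads. Among HF-fed animals HH was higher than LH by 0.553 points (95% interval -0.398 to 1.50; adjusted p = 0.690), and 14 of 19 CpGs were higher, against 136 of all 253. It was 0.349 points without LH replicate 5, and the sign turned in the quasi-binomial model (-0.0204 points). Unadjusted p-values under 0.05 were found at 1 of 19 CpGs in each, against 14.6% and 2.77% of the 253, and none passed adjustment.

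The CpG with an unadjusted p under 0.05 in HL against LL was Lepr_3. It ran from 3.87% through 5.16% to 7.58% in HL and from 4.28% through 6.56% to 10.1% in LL, with 6 of 9 HL animals below the LL median (-1.62 points, exact permutation p = 0.0415, adjusted p = 0.309). In HH against LH it was Lepr_16, with 1.05% to 2.86% in HH and 0.802% to 2.17% in LH (0.474 points, 95% interval 0.0103 to 0.938, adjusted p = 0.859).

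The remaining pairs complete the order of the groups. HH exceeded LL by 1.29 points (95% interval 0.528 to 2.06; adjusted p = 0.0436; 1 of 19 loci called, 5.26%), with 9 of 10 HH animals above the LL median. This call was lost under the exact permutation test (adjusted p = 0.0584) and when 17 of the 20 animals were left out singly, where the smaller group also changed the test to the exact one. At the CpGs, 7 of 19 had an unadjusted p under 0.05 (7.91% of the 253), with the smallest at Lepr_2 (2.69 points, p = 0.00551), and none passed adjustment (smallest adjusted p over the Lepr CpGs 0.428).

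HL lay below LH by 1.20 points at the locus mean (SE 0.417; exact permutation p = 0.0118, adjusted p = 0.0961), and all 9 HL animals lay below the LH median. The difference was past the threshold in the quasi-binomial model (adjusted p = 0.0301) and without LH replicate 5, the lowest LH animal (exact permutation, adjusted p = 0.0207). Lepr_7 was the only CpG of 253 called in this pair (0.395%). It ran from 10.8% through 16.0% to 17.2% in HL and from 16.9% through 19.1% to 23.8% in LH, so that the groups overlapped only in the stretch from 16.9% to 17.2%. The difference was -4.56 points ± 1.10 (SE; exact permutation p = 6.50e-05, adjusted p = 0.0164). It was not called when all 6 pairs and 3 terms were adjusted together.

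The gradient along the CpGs was measured in each animal as the slope of a straight line of methylation on distance. It was negative in all 39 animals, from -15.4 to -7.64 points per 100 bp. The mean was -10.8 ± 1.40 in LL, -9.97 ± 1.41 in HL, -11.9 ± 2.04 in LH and -13.2 ± 1.77 in HH, the same order as the locus mean; the groups with more methylation had the steeper fall. A line is only a summary here, since the profile has a step and 2 peaks. The steepest slope was in the animal with the highest upstream mean (HH replicate 6, 16.0%). The shallowest was in the animal with the lowest upstream mean (HL replicate 9, 7.95%). Tests of the slope in points are therefore not separate from those of the level.

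The slope was steeper in HH than in HL by 3.23 points per 100 bp (difference -3.23 ± 0.739, SE; exact permutation p = 0.000801, adjusted p = 0.00280 over 7 tests of the gradient) and steeper with HF than with LF after weaning (-2.13 points per 100 bp; permutation p = 0.00066, adjusted p = 0.00280). The other 5 tests did not pass (adjusted p from 0.115 for the interaction to 0.692 for maternal diet). The same calls were made without Lepr_1 and with the difference between the first 10 and the last 9 CpGs in place of a slope. The gradient was not tested within runs of animal numbers or with a wider adjustment. Within the 3 runs that held both HH and HL, the upstream mean differed by 1.76 points (exact permutation p = 0.1). The separate runs gave -1.45, 1.43 and 4.58 points.

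On the scale of log2 odds, which compares relative change at low and high CpGs, none of the 7 tests of the slope passed. The mean was -2.95 ± 0.472 per 100 bp in LL, -2.85 ± 0.323 in HL, -2.94 ± 0.310 in LH and -3.01 ± 0.350 in HH. The difference between HH and HL was -0.15 per 100 bp (SE 0.16; exact permutation p = 0.346), and the adjusted p of the 7 tests ran from 0.900 to 0.928. The locus mean of log2 odds still differed with post-weaning diet, by 0.28 (adjusted p = 0.00488). The slope difference in points was therefore not seen as a difference in the log2 odds slope at this number of animals.

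**Figure D5:**
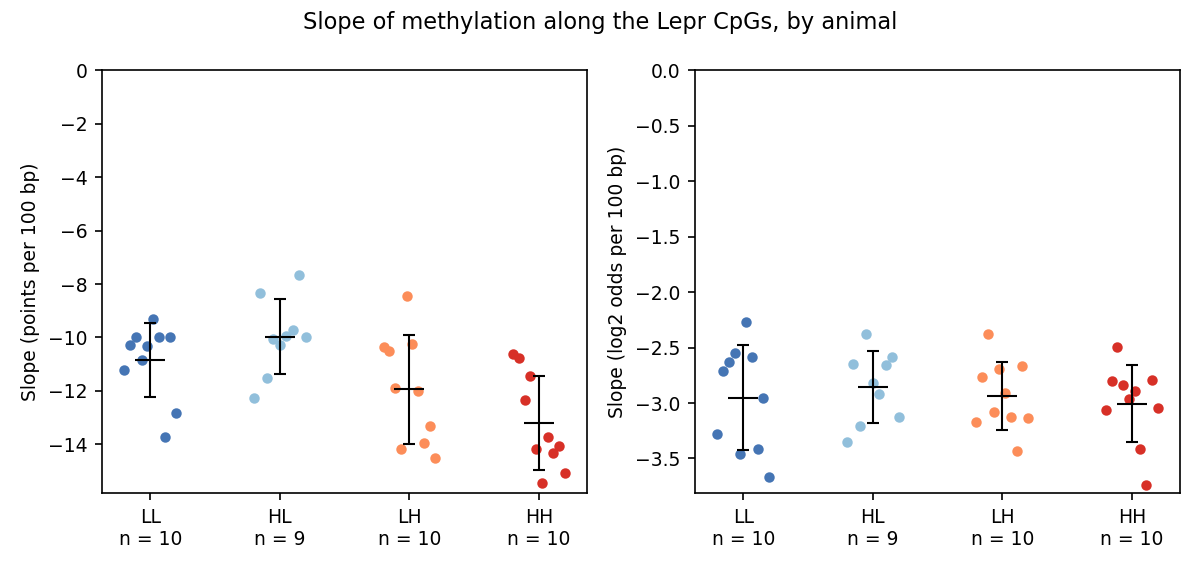
Slope of methylation along the 19 Lepr CpGs for each animal, in points per 100 bp (left) and in log2 odds per 100 bp (right), with the group mean ± SD in black for LL, HL, LH and HH. On the left the mean falls from -9.97 in HL to -13.2 in HH, and on the right the group means lie between -3.01 and -2.85 with overlapping animals.

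Other genes of leptin signalling were looked up from a list of 8 (Lep, Lepr, Jak2, Stat3, Socs3, Ptpn1, Irs1 and Irs2), of which 3 had a tested locus. Apart from Lepr itself, neither of the others was past the adjusted threshold in the post-weaning or maternal term (5.26% and 0% of the 19 loci called). Lep, which encodes leptin itself, had a locus mean of 66.0% ± 3.51. Its mean was 64.0% ± 3.71 in LL, 66.4% ± 1.92 in HL, 66.3% ± 3.89 in LH and 67.5% ± 3.55 in HH, and the post-weaning difference of 1.72 points did not pass the test (adjusted p = 0.383). Irs1, which encodes an insulin receptor substrate, had more than a single locus in the series, and only the locus that met the filter is given. Its locus mean was 94.5% ± 1.21 and the post-weaning difference 0.290 points (adjusted p = 0.807). Where this locus lies in the gene was not examined here, so its level does not describe the whole of Irs1.

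The loci whose means followed that of Lepr most closely over 39 animals were Srebf2, a regulator of cholesterol synthesis genes (Pearson's r = 0.354), Pck1, an enzyme of glucose production (r = 0.325), and Nr1i3, a nuclear receptor (r = 0.265). These are weak relations among 18 compared loci that share the animals and libraries, and the largest r in size was negative (Nfkb2, -0.378). These values and the r of -0.101 for Lep were computed without removing group means. With group means removed, r was 0.358 for Srebf2, 0.341 for Pck1, 0.195 for Nr1i3, -0.326 for Lep and -0.353 for Nfkb2. The largest in size was then -0.373, for the Ebp locus. None of Srebf2, Pck1 and Nr1i3 passed the post-weaning term. The difference was 0.0348 points at Srebf2 on a mean of 0.696%, 1.61 points at Pck1 and 2.16 points at Nr1i3 (adjusted p from 0.366 to 0.807).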

How the data were processed

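Liver DNA of mice was treated with bisulfite and amplified at selected loci; of the 40 labelled animals, 39 were analysed here. The authors deposited, per CpG and animal, counts of methylated and of all reads, and the fraction methylated, which equalled the ratio of the counts at the 741 Lepr values. The submitters' processing notes name Bismark and the mm9 build; the Bismark version is not given in the sources used here. Neither coordinates nor sequence of the Lepr amplicon are reported here. Gene names follow the GENCODE M1 annotation of the same build. Columns left unused: 0.

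Percent methylation was 100 × methylated/total reads. A CpG was tested if 36 or more animals had 10 or more reads there, as in the study's filter; 253 of 300 CpGs at 19 loci (gaps up to 1000 bp) met this. Read counts summed over the 300 CpGs ranged from 1530126 to 15531697 per animal. A read that covers several CpGs enters this sum at each of them, so it is not a number of reads. No 2 libraries were alike enough to be duplicates (smallest mean absolute difference 0.808 points). Pairs of groups were compared by Student's t-test where both had 10 animals and by an exact 2-sided permutation test (double the smaller tail) otherwise. Model terms used F tests. Adjustment was by Benjamini-Hochberg over the CpGs or loci of a comparison, at 0.05, and over 7 tests for the gradient. For HL pairs, intervals are not given because the test was a permutation. Log2 odds were log2((methylated + 1)/(unmethylated + 1)). Runs of animal numbers (gaps up to 3) formed 12 blocks; whether a run is a cage is not in the labels. Code was tested on simulated data. Lepr CpGs described in full are the first, last, highest and lowest, those with the smallest p in a comparison and those past the adjusted threshold; the others named were chosen after their values were seen. The members, lists and tests were chosen with earlier results of these data known. Alternatives were other tests, odds, pooled reads, higher read minima, background subtraction, other adjustments, parts of the locus, blocks and leaving out each animal. Tools were numpy 2.4.6, statsmodels 0.14.6, scipy 1.17.1, matplotlib 3.10.9 and pandas 2.3.3 under Python 3.11.15.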

Additional observations from a re-analysis of the deposited data

Results flagged for a closer look

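In 4 of the 96 combinations of a group with a Lepr CpG or summary that were checked, 1 animal stood far from the others of its group by Dixon's criterion, where chance alone would give about 4.8. At Lepr_2, HH replicate 6 had 16.3% against 12.2% in the next highest HH animal. At Lepr_7, HL replicate 3 had 10.8% against 14.7% in the next lowest HL animal. At Lepr_13, LL replicate 10 had 4.67% against 3.11% in the next highest LL animal. At Lepr_19, HL replicate 5 had 2.68% against 1.68% in the next highest HL animal. They were different animals, and the depth behind these values was 2306, 1911, 1971 and 6612 reads. The number of Lepr CpGs called for post-weaning diet was 3 whichever animal was left out.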

How the results depend on the processing

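The post-weaning difference of the Lepr locus mean kept its call with the permutation test, log2 odds, pooled reads, background subtraction, the joint adjustment, the upstream CpGs and the block, with 1.14 to 1.35 points when single animals were left out, and lost it with the 5′ UTR CpGs alone (0.300 points). The quasi-binomial model, the Wilcoxon test and the read and coverage filters were run for pairs of groups, not for this term. HH against HL (1.59 to 1.95 points without single animals, called each time) lost its call in the quasi-binomial model (1.26 points; held at 1.45 with even counts halved), as log2 odds (0.37), after subtraction of the mean over other low loci (1.51), with the UTR CpGs alone (0.403), with adjustment over 4 comparisons or over 6 pairs and 3 terms (1.75 in both) and with runs of animal numbers as a block (0.920). The mean over low loci was raised by HH replicate 1 (3.14%); with their median subtracted the call held (1.71). HH against LL (1.14 to 1.49 points without single animals) was lost under the exact test and the joint adjustment (1.29), the quasi-binomial model (0.976, or 1.04 with even counts halved), subtraction of the mean (1.06) or median (1.25) of low loci, and the UTR CpGs alone (0.287). HL against LH became called in the quasi-binomial model (-1.28, or -1.47 with even counts halved) and ran from -1.40 to -1.04 without single animals. HL against LL ran from -0.560 to -0.298 and HH against LH from 0.349 to 0.747 without single animals.

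The sign turned, with no call on either side, for HH against LH in the quasi-binomial model (-0.0204 with counts as deposited or halved), the maternal term with the mean of low loci subtracted (-0.0486), with the UTR CpGs alone (-0.0135) and without HH replicate 6 or 10 or LH replicate 1 or 5 (-0.0542 to 0.153 over all animals), the interaction with runs as a replicate block (-0.787) and the gradient for maternal diet without LH replicate 5 (-0.400 to 0.000859 over all animals).

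On log2 odds the gradient lost its calls (HH against HL -0.151, post-weaning -0.0652) and turned sign without a call in LH against LL (0.0162) and for maternal diet (0.0112). Called Lepr CpGs fell to 0 under the joint adjustment (HL against LH, post-weaning) and under the replicate block (post-weaning), and numbered 0 to 2 in HH against HL without single animals. The causes were not tested.

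No paired analysis was possible because replicate numbers follow accession order and pair no animals. The replicate block of runs of animal numbers gave 1.71 points for LH against LL and 1.29 points for the post-weaning term. At the locus mean LH against LL stayed uncalled and the post-weaning term stayed called. With the same block HH against HL lost its locus call, and the post-weaning calls of single CpGs were lost. No run held both maternal diets, so maternal pairs could not be blocked. Depth limits single UTR values most: Lepr_19 in HH replicate 8 was 0.294% (95% Wilson interval 0.125 to 0.685).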
